A study of Rattus norvegicus with 6 samples.

Results

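The genes described here are 10 genes of programmed axon degeneration: Sarm1, Nmnat1, Nmnat2, Nmnat3, Nampt, Mycbp2, Fbxo45, Map3k12, Map3k13 and Mapk10. They were picked by gene name from a table of 33713 genes, and all 10 had a row. RNA had been sequenced from the sciatic nerve of female Sprague-Dawley rats aged 8 weeks, on day 4. In all animals the nerve had retracted to a gap of about 6 mm, and its ends were sutured 2 mm deep into a silicone tube of 10 mm. The 3 ES samples had received electrical stimulation for 1 h before suturing, and the 3 control samples had not. The labels do not say which stretch of nerve was taken or whether each sample came from its own animal, so a p-value here reflects sample-to-sample spread that may be partly or wholly technical.

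A cut axon is not lost passively. SARM1 is an enzyme that cleaves NAD, and once active it destroys the axon from within. NMNAT enzymes hold it in check by turning NMN, the product of NAMPT, into NAD; NMNAT2 is the short-lived form that axons must receive from the cell body. The ubiquitin ligase of MYCBP2 and FBXO45 removes NMNAT2, and in worms and flies its counterpart also removes DLK, the kinase encoded by Map3k12. DLK and its relative LZK, encoded by Map3k13, sense axon damage and act through JNK kinases, of which Mapk10 encodes the neuronal form JNK3. Neuron cell bodies lie outside the sciatic nerve, so its RNA comes mainly from Schwann cells and the other cells around the axons.

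Libraries held 14962319 to 17119144 counts. Schwann cell markers were abundant, with 9 of 10 matched. Their summed level was 8135 to 10648 CPM (counts scaled by library size) in control and 10482 to 11117 CPM in ES. The log2 fold change of ES against control was above 0 for 8 of the 9. The groups overlapped only through control 2, at 10648 CPM. Of 14 neuron markers, 7 were too low to test. Rbfox3, a nuclear protein of neurons, had 0 to 4 counts in a library, and Snap25, of the synapse, 1 to 11. Other neuron markers were well covered, with 415 to 2190 counts for the neurofilament gene Nefl, 830 to 2924 for Nefm and 1672 to 2279 for Uchl1. The summed level of the neuron list was 290 to 467 CPM in control and 258 to 471 CPM in ES. The summed markers of 5 other cell types did not overlap between the groups. Adipocyte markers were at 1822 to 2318 CPM in control and 289 to 1007 CPM in ES, highest in control 1 and lowest in ES 1. Fibroblast markers were at 22121 to 29437 CPM in control and 19403 to 21665 CPM in ES, with 7 of 8 genes below 0 in log2 fold change. Most of this sum came from Col1a1 and Col3a1, which like Fbn1 and Dpp4 were lower in every ES library. Dcn, Pdgfra, Lum and Pi16 overlapped between the groups. Endothelial markers were at 674 to 762 and 511 to 561 CPM (7 of 7 below 0), and skeletal muscle markers at 20.7 to 31.3 and 14.5 to 20.1 CPM (4 of 5 below 0). Macrophage markers lay the other way, at 879 to 1007 CPM in control and 1093 to 1404 CPM in ES (9 of 9 above 0). ES 2 stood apart in blood cell markers, with 231 CPM for neutrophils against 24.2 to 41.9 CPM in the rest, and 1183 CPM for erythrocytes against 55.6 to 138 CPM. In bulk tissue fewer cells of a type and less RNA per cell cannot be told apart.

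The promoters of 4 of these genes are shown. Sarm1 and Mycbp2 are the pair whose control and ES libraries did not overlap. Map3k13 and Mapk10, the least abundant pair, are the only ones of the 9 genes examined with a cAMP response element (CRE, TGACGTCA) in the window. Jun and ATF proteins downstream of JNK can bind this element. Each window is the 250 bases before the RefSeq start of the gene in the GRCr8 build, written in the direction of transcription, with the CRE in capitals.
Sarm1: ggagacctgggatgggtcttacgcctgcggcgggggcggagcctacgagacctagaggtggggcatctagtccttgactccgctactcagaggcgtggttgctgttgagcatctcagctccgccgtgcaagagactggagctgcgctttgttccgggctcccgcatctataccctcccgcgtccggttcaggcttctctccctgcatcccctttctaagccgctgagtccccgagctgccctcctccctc
Mycbp2: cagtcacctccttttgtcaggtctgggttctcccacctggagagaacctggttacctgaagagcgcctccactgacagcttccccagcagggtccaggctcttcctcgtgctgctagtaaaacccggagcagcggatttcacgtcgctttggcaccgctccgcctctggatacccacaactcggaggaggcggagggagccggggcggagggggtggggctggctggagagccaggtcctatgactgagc
Map3k13: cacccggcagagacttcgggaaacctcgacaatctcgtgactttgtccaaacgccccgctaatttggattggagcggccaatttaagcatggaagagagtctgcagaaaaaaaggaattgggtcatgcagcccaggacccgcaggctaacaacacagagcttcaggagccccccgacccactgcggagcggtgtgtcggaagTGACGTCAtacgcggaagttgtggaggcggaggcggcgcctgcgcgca
Mapk10: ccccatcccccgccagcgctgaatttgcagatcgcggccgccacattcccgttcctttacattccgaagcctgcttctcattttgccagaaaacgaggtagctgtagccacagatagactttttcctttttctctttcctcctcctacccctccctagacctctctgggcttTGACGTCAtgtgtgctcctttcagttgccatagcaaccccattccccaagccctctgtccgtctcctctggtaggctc
The windows are chr10:63890873-63891122 (minus strand) for Sarm1, chr15:86590127-86590376 (minus) for Mycbp2, chr11:92739664-92739913 (minus) for Map3k13 and chr14:6802044-6802293 (plus) for Mapk10. RefSeq gave such a window for 9 of the 10 genes, all but Nampt, the most abundant, whose promoter was therefore not examined. The CRE began 48 bases before the start in Map3k13 and 78 bases before it in Mapk10, and it was in 2 of the 9 windows against 1.59% of 33469 rat promoters of the same length. The AP-1 motif TGANTCA was in 0 of the 9, against 6.34% of all promoters. Windows and motifs were chosen with the values of these genes known. Both motifs read the same on both strands, apart from the N, and do not overlap each other. The GC share ran from 54.0% (Nmnat2) to 79.2% (Fbxo45), with 63.6% for Sarm1 and 62.8% for Mycbp2.

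Levels of the 10 genes spanned a wide range per length. On the deposited FPKM scale (fragments scaled by gene length and library size), Nampt was highest at 26.4 ± 3.49 (SD, n = 6 libraries), followed by Map3k12 at 14.0 ± 1.12. Mycbp2 at 6.08 ± 0.693 and Nmnat1 at 5.97 ± 0.698 came next and could not be ordered, since each was the higher in 3 libraries. Fbxo45 (3.79 ± 0.911) and Nmnat3 (3.46 ± 0.211) also overlapped. Nmnat2 (1.63 ± 0.402) was above Sarm1 (1.17 ± 0.301) in all 6 libraries, although their ranges overlapped (1.20 to 2.30 and 0.918 to 1.75). Map3k13 (0.684 ± 0.181) and Mapk10 (0.264 ± 0.103) were lowest. Nampt lay at the 77.8th percentile of mean FPKM among the 14828 tested genes, Sarm1 at the 11.6th and Mapk10 at the 1.55th. Scaling counts by TMM and length in place of the deposited FPKM gave the same order. It uses the same counts and lengths, so it is not a separate check. Sarm1 had more counts than Nmnat2 in every library, so their order per length rests on deposited lengths of 4039 and 1574 bases. The deposited length of Fbxo45 is only 849 bases, and a level per length depends on it.

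**Figure D1:**
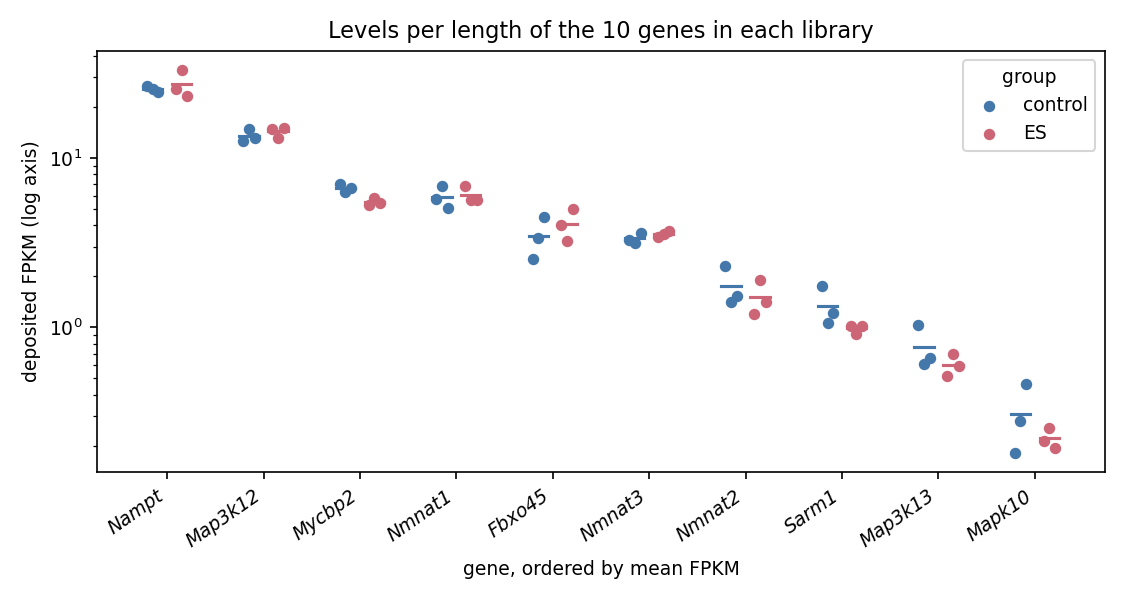
Deposited FPKM (log axis) of the 10 genes in each library, with control in blue, ES in red and group means as lines. Nampt sits highest at 23.1 to 33.1 and Mapk10 lowest at 0.182 to 0.461, and only for Mycbp2 and Sarm1 do all 3 ES points lie below all 3 control points.

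No gene of the 10 was below the limit set for reading it, a mean of 10 counts or the expression filter of the test. Mapk10 came closest, with 9, 13 and 22 counts in control and 11, 13 and 9 in ES, a mean of 12.8. Its ES level could lie anywhere between 0.355 and 1.47 times the control level (95% interval), so it was too sparse to show any difference short of a large one. Nmnat2 (32 to 59 counts), Fbxo45 (35 to 65), Map3k13 (49 to 94) and Sarm1 (62 to 115) were readable but imprecise. Nmnat3, Nmnat1, Map3k12, Nampt and Mycbp2 had more than 100 counts in every library.

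No gene of the 10 passed the test for a difference between ES and control nerve. The quasi-likelihood test of edgeR with Benjamini-Hochberg adjustment over all tested genes called 0 of 10, against 0.169% of all genes, and DESeq2 also called 0 of 10, against 1.99% of all genes. At an unadjusted p under 0.05 edgeR gave 1 gene, Mycbp2, lower in ES; over all genes 9.95% passed that level, and 5.94% passed it while lower in ES. The libraries of the groups did not overlap for 2 genes, Mycbp2 and Sarm1, both lower in ES; over all genes 15.8% did not overlap, with 8.23% lower and 7.54% higher in ES. The log2 fold changes of ES against control had a median of −0.09 over the 10 genes, 5 above and 5 below 0, against 0.0025 over all tested genes.

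**Figure D2:**
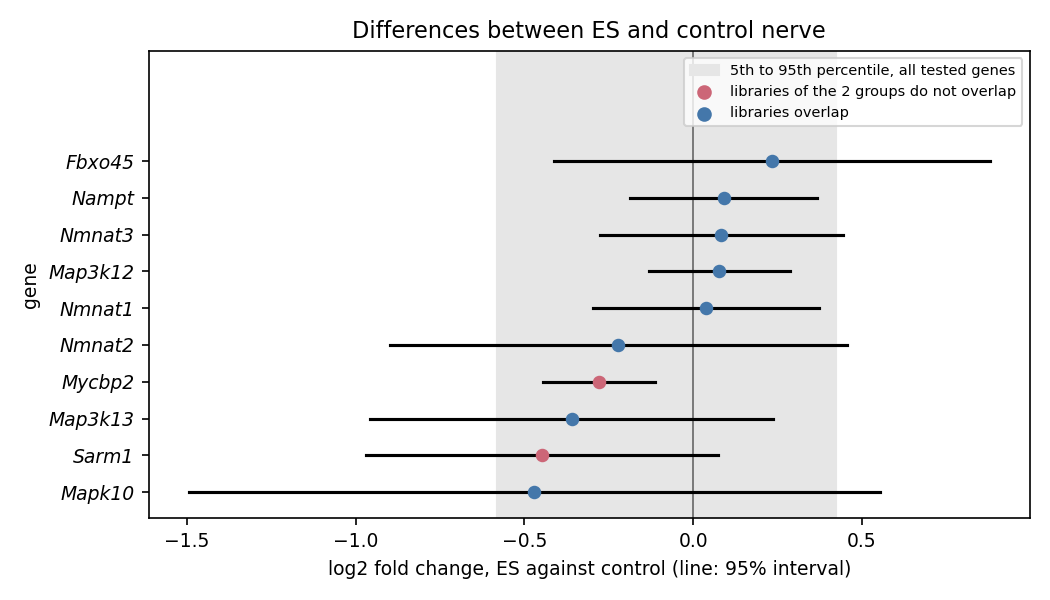
Log2 fold change of each gene in ES against control (points) with its 95% interval (lines); the grey band holds the 5th to 95th percentile of all tested genes, −0.58 to 0.42. Every point lies within the band, and only the interval of Mycbp2 (−0.45 to −0.11, unadjusted) leaves out 0.

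Sarm1, the NAD-cleaving executioner (ENSRNOG00000010244, chromosome 10, 65742343 to 65766050, minus strand; positions here and below are those of the deposited tables, whose build is not settled), encodes the enzyme that NMNAT activity holds in check. Its counts were 115, 66 and 77 in control and 70, 62 and 63 in ES, or 7.09, 4.33 and 4.94 CPM against 4.15, 3.71 and 4.14 CPM. Every ES library was below every control library, but control 2 and ES 1 lay close together and control 1 stood well above the rest. The log2 fold change was −0.45 ± 0.23 (SE), with an edgeR adjusted p of 0.559. Without control 1 it was −0.21 (edgeR adjusted p = 0.908). Counting error alone would give a standard error of 0.14.

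The 3 NMNAT genes encode enzymes of different compartments: NMNAT1 of the nucleus, NMNAT2 of the Golgi and axon, and NMNAT3 of mitochondria. Nmnat1 (ENSRNOG00000015962, chromosome 5, 166409461 to 166430254) was at 12.1, 14.4 and 10.8 CPM in control and 14.4, 11.9 and 12.0 CPM in ES. These values interleave, and the log2 fold change was 0.04 ± 0.15 (SE). Nmnat3 (ENSRNOG00000013585, chromosome 8, 106317124 to 106429522) was the steadiest, with 6.84, 6.62 and 7.58 CPM in control and 7.11, 7.43 and 7.75 CPM in ES, a log2 fold change of 0.08 ± 0.16. For both genes the 95% interval left room for no more than 1.36-fold higher or 0.815 times the control level.

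Nmnat2 (ENSRNOG00000027697, chromosome 13, 70379346 to 70559458), the axonal form, had 59, 34 and 38 counts in control and 32, 50 and 34 in ES. Control 1 and ES 2 were the high libraries and the other 4 lay close together. The log2 fold change was −0.22 ± 0.31 (SE; edgeR adjusted p = 0.859), and 0.03 without control 1. Per length, the level of Nmnat2 was 1.17 to 1.38 times that of Sarm1 in 5 libraries and 2.07 times in ES 2.

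Among the NMNAT genes, Nmnat1 took the largest share of the summed FPKM in every library, 53.4% ± 5.52 in control and 54.4% ± 4.70 in ES (SD, n = 3). Nmnat3 took 30.7% ± 4.02 and 32.1% ± 2.30. Nmnat2 took 15.9% ± 4.04 and 13.6% ± 3.31, the smallest share everywhere. The ranges of the groups overlapped for all 3 genes.

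Nampt (ENSRNOG00000009754, chromosome 6, 52122085 to 52156472) makes NMN and sets the pace of NAD salvage. It was at 71.9, 68.5 and 66.7 CPM in control and 69.0, 89.2 and 62.1 CPM in ES. ES 2 stood above the other 5 libraries, and ES 3 was the lowest. The log2 fold change was 0.09 ± 0.12 (SE; edgeR adjusted p = 0.857), and −0.07 without ES 2. Over all alternatives it ran from −0.07 to 0.41, and the lowest adjusted p was 0.626, by edgeR without ES 3. In ES 2 the neutrophil marker S100a9 was at 91.2 CPM, against 0.852 to 4.39 CPM elsewhere; 5 of the 6 tested neutrophil markers had a log2 fold change above 0. The sixth, Mpo, the peroxidase of neutrophil granules, was at 10.8, 5.90 and 7.19 CPM in control and 0.0593, 0.719 and 0.854 CPM in ES. The erythrocyte marker Hbb was at 1140 CPM in ES 2 and 54.1 to 134 CPM elsewhere. The part of blood cells in the level of Nampt was not tested.

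Mycbp2 (ENSRNOG00000010479, chromosome 15, 87506959 to 93868301, minus strand) encodes the large ubiquitin ligase known as PHR1 or PAM. It was at 106, 95.02 and 101 CPM in control and 79.5, 87.4 and 81.9 CPM in ES, or 101 ± 5.37 against 83.0 ± 4.06 CPM (SD, n = 3). The lowest control library, control 2, exceeded the highest ES library, ES 2. The log2 fold change was −0.28 ± 0.07 (SE), with an unadjusted p of 0.00361 and an edgeR adjusted p of 0.206. DESeq2 gave an adjusted p of 0.115, and over the other alternatives the adjusted p ran from 0.108 without control 2 to 0.967 with an adipocyte score as covariate, where the log2 fold change was −0.13.

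The deposited length of Mycbp2 is 15048 bases, and long genes as a class lay lower in ES, a comparison added after seeing the data. Over the 141 tested genes of more than 10000 bases the median log2 fold change was −0.12, with 78.7% below 0. It was 0.05 over the 1838 genes of up to 1000 bases, with 39.6% below 0. Among the 141 longest genes 19.1% had a log2 fold change at or below that of Mycbp2, against 14.5% of genes of up to 1000 bases. The length classes between these lay at 11.5% to 15.8%. Such a share depends on the spread within a class as well as on its median, so it does not isolate length. The lower and upper quartiles were −0.12 and 0.19 for genes of up to 1000 bases, and −0.26 and −0.02 for the 141 longest. ES libraries were all below the control libraries for 23.4% of the 141 genes, against 8.23% of all tested genes. Within libraries, the median deviation of these 141 genes from their own mean log2 CPM was 0.11, 0.04 and 0.03 in control and −0.13, −0.03 and −0.03 in ES. Mycbp2 too was highest in control 1 and lowest in ES 1. The part of transcript length in the lower Mycbp2 level was not tested. Its deposited interval covers 6361343 bases and 35 other genes, 12 of them tested, so reads on either could be shared to the extent that exons overlap.

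**Figure D3:**
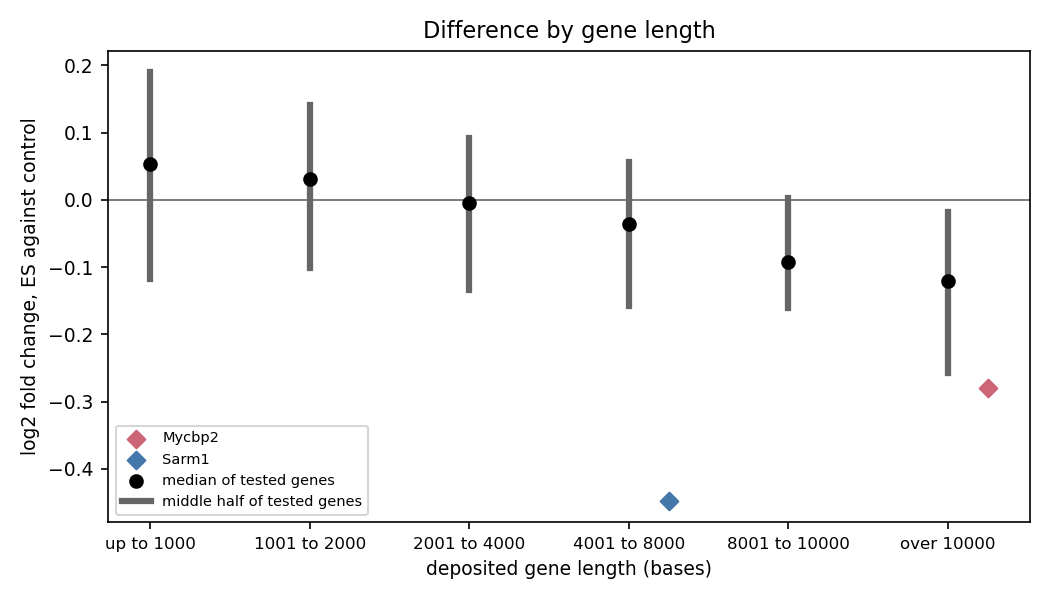
Median log2 fold change in ES against control (black points) and the middle 50% of tested genes (grey bars) by deposited gene length in bases, with Mycbp2 and Sarm1 as diamonds in their length classes. The medians run from 0.05 for the shortest class to −0.12 for the longest, where Mycbp2 lies at −0.28; Sarm1, at 4039 bases, lies at −0.45 in a class with a median of −0.04.

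Fbxo45 (ENSRNOG00000061515, chromosome 11, 71796282 to 71808498) encodes the F-box partner through which MYCBP2 binds its substrates. It had 35, 44 and 60 counts in control and 58, 46 and 65 in ES. Control 1 was its lowest library and ES 3 its highest, and the groups overlapped. The log2 fold change was 0.23 ± 0.29 (SE; edgeR adjusted p = 0.842); it was 0.053 without control 1, 0.064 without ES 3, 0.38 without ES 2 and 0.47 without control 3. Per length, the level of Mycbp2 was 1.49 to 2.76 times that of Fbxo45 in control and 1.08 to 1.79 times in ES.

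Map3k12 (ENSRNOG00000015134, chromosome 7, 144102680 to 144109116) encodes DLK, the kinase that starts the injury signal. It had 704, 782 and 709 counts in control and 864, 749 and 789 in ES, or 46.7 ± 4.07 and 49.3 ± 3.85 CPM (SD, n = 3). The groups overlapped, and the log2 fold change was 0.08 ± 0.09 (SE), with a 95% interval of 0.913 to 1.22 times the control level. This was the tightest bound among the 10 genes after that of Mycbp2. Map3k13 (ENSRNOG00000025423, chromosome 11, 82745735 to 82938357), the LZK gene, had 94, 52 and 58 counts in control and 49, 65 and 50 in ES. Control 1 stood apart as the high library. The log2 fold change was −0.36 ± 0.27 (SE; edgeR adjusted p = 0.709), and −0.08 without control 1. The deposited interval of Map3k13 overlaps 6 other genes, 3 of them tested.

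Of the summed FPKM of these paired kinases, Map3k12 held 94.6% ± 1.91 in control and 95.9% ± 0.888 in ES (SD, n = 3). Its level per length was 12.2 to 28.7 times that of Map3k13 over the 6 libraries. Mapk10 (ENSRNOG00000002079, chromosome 14, 8080275 to 8368254), the JNK3 gene, was at 0.555, 0.852 and 1.41 CPM in control and 0.652, 0.779 and 0.591 CPM in ES. Control 3 was the high library, and the log2 fold change was −0.47 ± 0.46 (SE; edgeR adjusted p = 0.787), or −0.05 without control 3. Mapk10 held 0.470% to 1.38% of the summed FPKM of the 3 JNK genes.

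The other JNK genes carried the rest. Mapk9, which encodes JNK2, held 77.8% to 79.9% of the JNK total in control and 82.4% to 82.8% in ES. Mapk8, which encodes JNK1, held 18.7% to 21.4% in control and 16.4% to 17.1% in ES. These shares did not overlap between the groups. Neither gene passed the test: Mapk8 was at 12.4 ± 1.73 and 9.96 ± 1.25 CPM, a log2 fold change of −0.32 ± 0.16 (SE; adjusted p = 0.536 by edgeR), and Mapk9 at 115 ± 6.73 and 118 ± 12.3 CPM, a log2 fold change of 0.04 ± 0.09 (adjusted p = 0.921 by edgeR).

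**Figure D4:**
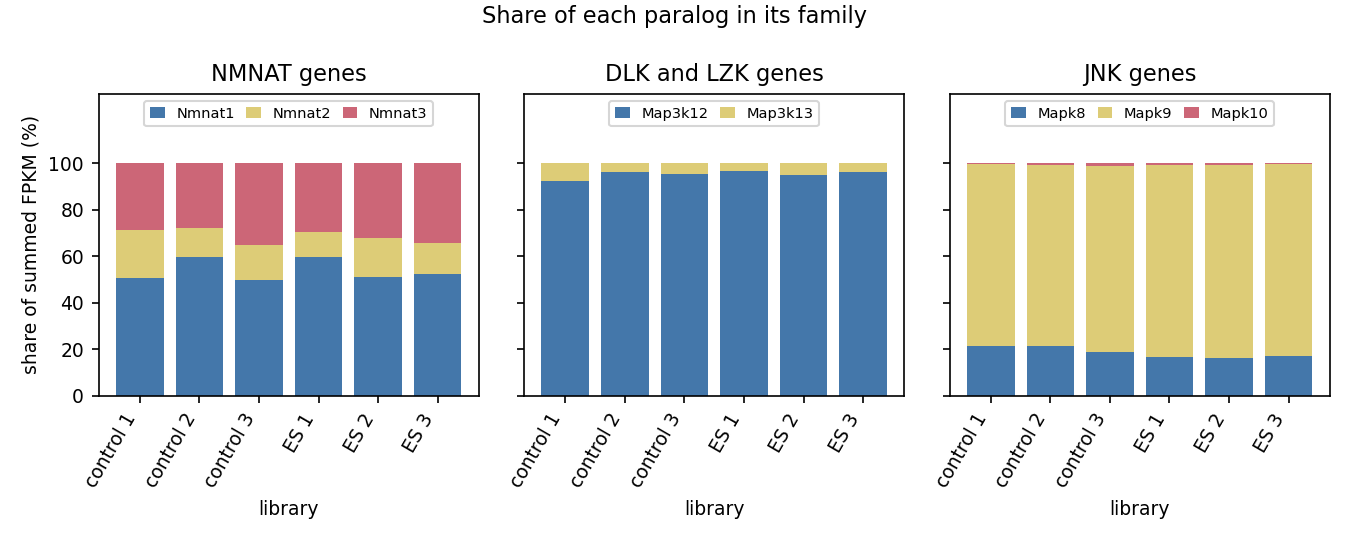
Share (%) of the summed FPKM of a family taken by each paralog in each library, as stacked bars. Nmnat1 is the largest NMNAT share at 49.7% to 59.8%, and Map3k12 holds 92.4% to 96.6% of its pair. Mapk9 holds at most 79.9% in control and at least 82.4% in ES while Mapk10 is barely visible. The CPM of Mapk8 and that of Mapk9 each overlapped between the groups.

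Control 1 was the highest library for Sarm1, Nmnat2, Map3k13 and Mycbp2 and the lowest for Fbxo45, Map3k12 and Mapk10. It was also the library with the highest summed level of the adipocyte markers, 2318 CPM. Of the 14 adipocyte markers, 13 had a log2 fold change below 0, and Adipoq ran from 140 to 266 CPM in control and from 6.28 to 45.7 CPM in ES. The mean log2 CPM of the list was 5.78 to 6.50 in control and 2.68 to 5.05 in ES, so fat content and stimulation cannot be told apart. The same holds for the fibroblast, endothelial, skeletal muscle and macrophage markers, whose sums also separated the groups. Schwann cell markers, 8 of 9 above 0 in log2 fold change, overlapped between the groups only through control 2. The part of all these cells in the levels of the 10 genes was not tested.

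Genes around this pathway mostly differed little between the groups. Over 7 lists of NAD metabolism, kinases, ligase partners, targets and effectors, 93 of 97 names matched a row and 83 were tested. The quasi-likelihood test of edgeR called 0 of them, against 0.169% of all genes. Of the 83, 6 had an unadjusted p under 0.05 (4 higher, 2 lower in ES), against 9.95% of all genes, and the libraries did not overlap for 11, against 15.8%. DESeq2 called 2, against 1.99% of all genes. These shares are near or below those of all genes. The median log2 fold change was 0.02, with 43 above and 40 below 0.

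In NAD salvage and synthesis, 12 of 17 genes were tested, with a median log2 fold change of −0.01. Pnp, which splits nicotinamide riboside among other nucleosides, averaged 199 ± 17.2 CPM without and 229 ± 18.0 CPM with stimulation (unadjusted p = 0.0434; edgeR adjusted p = 0.480). Slc12a8, described in mice as an NMN carrier, had 25, 32 and 32 counts in control and 24, 18 and 14 in ES, a log2 fold change of −0.73 ± 0.34 (SE; edgeR adjusted p = 0.511). Qprt, of NAD synthesis from tryptophan, had a log2 fold change of 0.21 ± 0.12, or 0.094 without control 1. Nmrk2, Tdo2, Ido1 and Acmsd had 0 counts in all libraries, and Haao had at most 5 in a library.

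In the list headed NAD consumers 11 genes were tested, with a median of 0.02. Nnmt stands on this list, though its enzyme methylates nicotinamide and does not use NAD. This gene, active in fat among other tissues, was at 14.9, 13.1 and 13.3 CPM in control and 8.00, 13.2 and 8.01 CPM in ES. ES 2 reached the control range, and the log2 fold change was −0.50 ± 0.20 (SE; edgeR adjusted p = 0.438). Bst1, an ADP-ribosyl cyclase related to CD38, was high in ES 2 alone, with 9.94 CPM there and 2.82 to 5.11 CPM elsewhere; its log2 fold change was 0.53, and −0.09 without ES 2. The deacetylase gene Sirt2 had a log2 fold change of 0.09 ± 0.08.

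No kinase related to DLK and no gene of the JNK module passed the test. All 13 listed kinases were tested, with log2 fold changes from −0.33 (Map3k5) to 0.16 and a median of −0.02. Map3k11, a mixed-lineage kinase like DLK, averaged 116 ± 10.2 CPM without and 128 ± 8.95 CPM with stimulation, with no overlap (edgeR adjusted p = 0.606), and Mink1, a MAP4 kinase, had a log2 fold change of 0.13 ± 0.08. Of the JNK module 11 of 12 were tested, with a median of −0.02. Dusp16, a phosphatase that acts on JNK, was at 12.9 ± 0.617 and 14.8 ± 0.852 CPM without overlap (edgeR adjusted p = 0.631), and Dusp1, another such phosphatase, had a log2 fold change of −0.36 ± 0.30. For Dusp1 this was −0.72 without ES 2 (edgeR adjusted p = 0.0709) and −0.16 without ES 1 (edgeR adjusted p = 0.944).

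Among ligase partners and genes of NMNAT2 or DLK turnover, Stmn2 had the largest difference; it encodes a stathmin of axons that in mice is turned over together with NMNAT2. It had 66, 41 and 83 counts in control and 15, 26 and 26 in ES, with no overlap and a log2 fold change of −1.54 ± 0.35 (SE; edgeR adjusted p = 0.143). DESeq2 called it (adjusted p = 0.0178), as did edgeR when low counts were not filtered (adjusted p = 0.0395) and when control 2 was left out (adjusted p = 0.0456; range 0.0178 to 0.962 over all alternatives). With the adipocyte score as covariate the log2 fold change of Stmn2 was −0.76 (edgeR adjusted p = 0.962), in a fit that cannot tell fat content from stimulation. Hsp90ab1, a chaperone gene, was at 1451 ± 75.4 and 1670 ± 149 CPM (edgeR adjusted p = 0.472), and the mTOR regulator Tsc1 had a log2 fold change of −0.18 ± 0.10. Over the 14 tested genes of this list the median was −0.03.

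Of the 14 genes listed as targets of DLK and JNK, 9 were tested, with a median of 0.12, and edgeR called 0. There were 7 above 0, against 7518 of the 14828 genes tested in all, and the groups did not overlap for 1. Ddit3, which encodes the stress factor CHOP, was at 15.5, 16.0 and 15.5 CPM in control and 18.6, 22.6 and 22.0 CPM in ES. The groups did not overlap, with a log2 fold change of 0.43 ± 0.11 (SE; unadjusted p = 0.0033; edgeR adjusted p = 0.201). Its deposited interval overlaps that of Mars, so reads on either could be shared to the extent that exons overlap. The injury factor Atf3 was at 581 ± 58.9 and 634 ± 17.9 CPM (edgeR adjusted p = 0.679), and Chac1, a glutathione-degrading enzyme of the stress response, had a log2 fold change of 0.34 ± 0.25. Sox11, Sprr1a and Ecel1, which neurons switch on after axon injury, had at most 7, 2 and 18 counts in a library and were not tested.

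Axon breakdown effectors had a median of 0.03 over 13 tested genes. Casp6, a caspase linked to axon breakdown, had 6, 18 and 8 counts in control and 85, 105 and 14 in ES. ES 3 stayed within the control range, and the log2 fold change was 2.57 ± 0.77 (SE), with an edgeR adjusted p of 0.327. DESeq2 called it (adjusted p = 0.00500), as did edgeR without ES 3 (adjusted p = 0.0379; range 0.00500 to 0.863 over all alternatives). The calpain gene Capn2 averaged 379 ± 5.76 and 420 ± 17.9 CPM in control and ES, without overlap, and differed by 0.15 ± 0.07 on the log2 scale (edgeR adjusted p = 0.528), while Cast, the inhibitor of calpains, had a log2 fold change of −0.17 ± 0.08. Capns1, the small calpain subunit, is named after its values were seen: it had 1408 counts in control 2 and 35 to 63 in the other libraries.

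**Figure D5:**
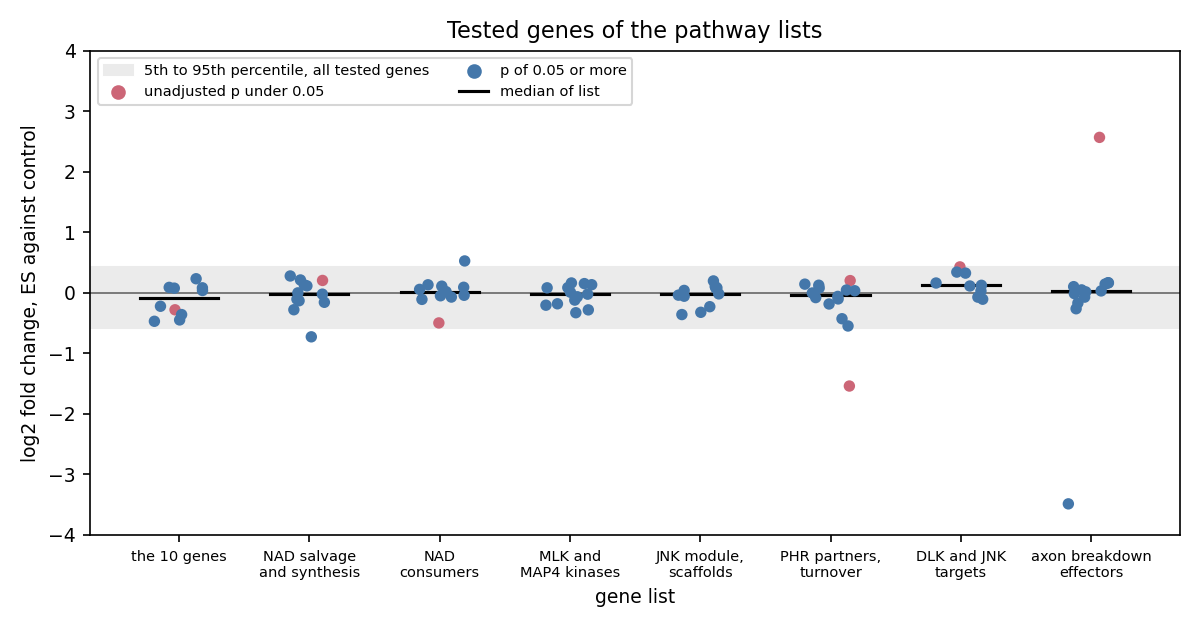
Log2 fold change in ES against control of the 10 genes and of the tested genes in each pathway list, with red for an unadjusted p under 0.05 and lines for list medians; the grey band is the 5th to 95th percentile of all tested genes. Medians stay between −0.09 and 0.12, and the far points are Stmn2 (−1.54), Casp6 (2.57) and Capns1 (−3.49), the last set by 1 library.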

How the data were processed

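RNA-seq of 3 control and 3 ES libraries was deposited as whole-number read counts per gene and as FPKM per gene, 1 column per library, with a table of group means of FPKM that matched the means of the columns and was not used further. Per the labels, RNA was extracted in TRIzol and made into libraries by a NEBNext Ultra kit. Each deposited FPKM value is the count divided by the table's gene length and 1 constant per library. Per the submitters' processing notes the build is rn7, while chromosome 1 of the tables reaches position 282724300 and 6890 genes have AABR07 clone names, as in an earlier rat build; coordinates are therefore given as deposited, with the build not settled. Not given in the sources used here are the aligner, the counter and how it used strand.

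Deposited counts were tested by quasi-likelihood in edgeR 4.0.16, run in R 4.3.3 (filterByExpr, TMM, robust dispersions, two-sided), with Benjamini-Hochberg adjustment over 14828 genes and calls under 0.05. Loci without a gene name (830, 0.723% to 0.840% of counts) were kept. Standard errors are the absolute log2 fold change over the square root of F, and 95% intervals use the degrees of freedom of the test. Alternatives used DESeq2 1.42.0 and limma 3.58.1. Scripts were tested on simulated data. Libraries of a group differed beyond sampling noise (chi-square per gene 11.1 to 19.3). Besides the 10 genes, the text names up to 3 tested genes per pathway list with the lowest unadjusted p, and any called. The genes and lists were chosen with earlier results of these data known. Gene names and promoters come from RefSeq (GRCr8). List genes without a row of that symbol were looked up by Ensembl identifier or synonym, a step chosen after seeing the data.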

Additional observations from a re-analysis of the deposited data

How the results depend on the processing

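Under all 19 alternatives, 0 of the 10 genes were called. The count over all genes was 25 (5 higher, 20 lower). It was 294 with DESeq2 (89 higher, 205 lower), 2 with limma-voom, with non-robust dispersions and with limma-trend on log2(FPKM + 0.1), 3 on log2(FPKM + 1), 39 with library totals, 132 without a filter on low counts, 11 with the replicate number as a block, 13 with the adipocyte score as covariate (12 higher, 1 lower) and 2 to 152 when 1 library was left out. Pathway genes called numbered 2 with DESeq2, 1 without the filter, 0 with the replicate block and 0 to 1 with a library left out. The replicate numbers did not pair the samples (correlations of same-numbered deviations −0.12, −0.13 and −0.04), and the block called 0 of the 10 genes.

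Mycbp2, Sarm1, Nmnat3 and Mapk10 kept their direction throughout; Mapk10 had no value with the filter at a mean of 1 CPM. With a library left out, log2 fold changes ran from −0.053 to 0.15 for Nmnat1, −0.42 to 0.030 for Nmnat2, −0.068 to 0.20 for Nampt, 0.053 to 0.47 for Fbxo45, 0.031 to 0.15 for Map3k12, −0.50 to −0.081 for Map3k13, 0.044 to 0.14 for Nmnat3, −0.59 to −0.21 for Sarm1, −0.74 to −0.055 for Mapk10 and −0.32 to −0.24 for Mycbp2. Named pathway genes that moved by over 1.5 times were Bst1 (−0.089 to 0.83), Dusp1 (−0.72 to −0.16), Qprt (0.094 to 0.31), Atf3 (0.059 to 0.20), Map3k5 (−0.48 to −0.16), Map3k11 (0.085 to 0.19), Sirt2 (0.053 to 0.16), Chac1 (0.22 to 0.58), Nnmt (−0.78 to −0.37), Mink1 (0.087 to 0.20) and Hsp90ab1 (0.13 to 0.25). With the adipocyte score as covariate the sign changed for Nmnat1 (−0.26), Nmnat2 (0.52), Fbxo45 (−0.13), Map3k12 (−0.14), Map3k13 (0.22), Qprt (−0.030), Nnmt (0.14), Map3k11 (−0.049), Dusp1 (0.54) and Chac1 (−0.27). The score itself separated the groups, so this fit cannot tell fat content from stimulation, and the cause of these changes was not tested. Bst1 changed sign without ES 2 (−0.089), and the other named pathway genes kept their direction. Depth limits Mapk10 most, with a counting error of 0.33 in its log2 fold change.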
